A study of Arabidopsis thaliana with 6 samples.

Results

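Weak shared regions on the chromosome arms were the subject: places on protein-coding genes where every replicate of an EBS ChIP-seq experiment had a peak, but where that peak was weak in at least 1 replicate. EBS, named after the early bolting of its mutant in short days, is a chromatin protein of Arabidopsis that delays flowering. Peaks of the 3 deposited lists were merged where they shared 1 bp or more, which gave 7956 nuclear regions. A region was a member when it held a peak of all 3 lists, had a best score below 100 in at least 1 list, overlapped the body of a protein-coding gene and no pseudogene, and had its midpoint outside a set pericentromeric window of each chromosome. Of the 7956 regions, 336 met the rule. Of all merged regions, 1780 (22.4%) held a peak of all 3 lists, and 741 of those lay on arms, on protein-coding genes and off pseudogenes. The 336 members made up 45.3% of these 741, and the other 405, with a best score of at least 100 in every list, are called strong shared regions here. Applied to replicates 1 and 2 alone, without replicate 3, the same rule gave 724 regions. It gave 429 without replicate 1 and 426 without replicate 2.

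The 3 ChIP samples and the 3 input DNA samples were made from whole seedlings of the Col-0 strain at an age of about 10 days, raised under 16 h light and 8 h dark. All plants were mutant in EBS and in the related gene SHL (ebs shl) and carried EBS fused to FLAG under the native EBS promoter. The ChIP samples were collected with an anti-FLAG antibody and the input samples without one. No separate values of the input samples and no ChIP from plants without the tag were used here, so EBS binding and a background shared by all 3 ChIP samples cannot be told apart here. Whole seedlings hold many cell types, and a weak peak from few cells with much EBS cannot be told apart from one with little EBS in many cells.

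EBS reads histone marks through 2 domains: a bromo-adjacent homology domain that binds histone H3 methylated at lysine 27, a mark of Polycomb-repressed genes, and a PHD finger that binds histone H3 methylated at lysine 4, a mark of transcribed genes. Both marks lie over protein-coding genes in Arabidopsis, the first along whole gene bodies and the second near the start of transcription. EBS is best known as a repressor of the floral integrator genes.

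The nuclear lists held 5237, 4216 and 3661 peaks in replicates 1, 2 and 3. Read counts are not part of the lists, and their depth is unknown. The score is the authors' value for each peak, which this caller derives from the peak's p-value on a log10 scale (higher means a smaller p), and its lowest value was 20. A score of 100 did not stand at the same rank in each list: it exceeded 72.5% of the nuclear peaks in replicate 1, 68.0% in replicate 2 and 49.6% in replicate 3. Members took up 378, 349 and 363 of the peaks in those lists, or 7.22%, 8.28% and 9.92%. The labels do not state whether the replicates were grown separately, and differences between them may be technical.

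Members differed in the lists in which they scored below 100, a limit that stood at a different rank in each list. Scores chose the members, so they are given as a description with no test. In 101 members (30.1%) all 3 lists were below 100, in 135 (40.2%) exactly 2 lists were, and in 100 (29.8%) only 1 was. The most frequent patterns after weakness in all lists were weakness in replicates 1 and 2 together (100 regions), in replicate 2 alone (42) and in replicate 3 alone (42). Replicates 1 and 3 together were weak in 28 regions, replicate 1 alone in 16, and replicates 2 and 3 together in 7. Over all members the median best score was 60.6 in replicate 1, 63.0 in replicate 2 and 94.9 in replicate 3, and the ranges were 20.2 to 779, 20.04 to 1591 and 20.1 to 2204. As ranks within their own lists these medians stood at percentiles 66.2, 59.9 and 48.5, so the higher scores of replicate 3 were not higher ranks.

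**Figure D1:**
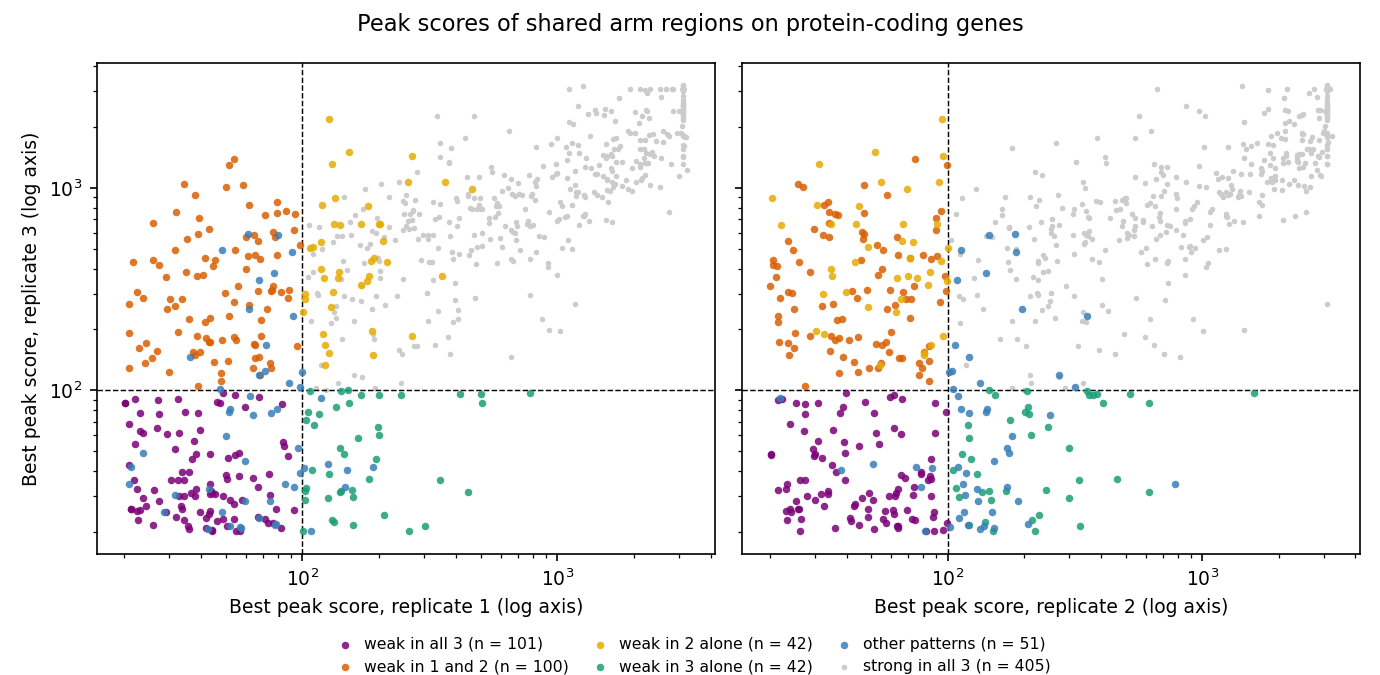
Best peak score of each shared arm region on a protein-coding gene in replicate 3 (vertical, log axis) against replicate 1 (left) and replicate 2 (right), with colours for the lists in which a member scored below 100 and grey for the 405 strong shared regions. The dashed lines stand at 100; the 100 members weak in replicates 1 and 2 fill the upper left of both panels with replicate 3 scores of up to 1391, and the 42 members weak in replicate 3 alone lie in the lower right.

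The 100 regions weak in replicates 1 and 2 had a median score of 305 in replicate 3, with quartiles of 174 and 503, against medians of 49.0 and 45.8 in replicates 1 and 2. AT2G36026 (chromosome 2, 15126714 to 15128179, TAIR10) had scores of 86.2, 93.7 and 773 in replicates 1, 2 and 3. LBD11, a gene of the LOB-domain family of organ boundary regulators, had 54.0, 74.0 and 1391 (chromosome 2, 12187497 to 12188437). IAA33, a member of the Aux/IAA family of auxin response repressors, had 92.7, 90.1 and 618. Replicate 3 alone was thus high at these genes and the other lists lay below 100. AT1G75710 had 51.5, 99.6 and 1293. At IAA33 the region lay mostly beside the gene, and a peak of replicate 1 alone reached its body.

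The 4 widest spreads of score between lists had replicate 3 on top, by score and by rank within the list. SK20, which encodes a SKP1-like subunit of ubiquitin ligases, had 134, 20.4 and 887, a 43.4-fold difference between the highest and the lowest score. AT1G16510 (SAUR41), an auxin-induced SAUR gene, had 130, 31.0 and 1318 (42.5-fold). The zinc transporter gene ZIP5 had 50.02, 26.9 and 1017 (37.8-fold), and AT4G17810 had 34.4, 25.7 and 1045 (40.7-fold). In 64 members (19.0%) the highest score was at least 10 times the lowest, and in 57 (17.0%) it was at most 2 times the lowest. The median of this ratio was 4.28 in members and 1.76 in strong shared regions; the rule acts on the lowest score, so the difference is a description.

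Regions weak in replicate 3 alone showed the opposite order. Their 42 members had median scores of 151 and 208 in replicates 1 and 2 and of 47.2 in replicate 3. AT4G32020 had the highest values among them, 779, 1591 and 97.0 (chromosome 4, 15487551 to 15490440). The region on emb2171, whose locus (AT3G04400) encodes a protein of the large ribosomal subunit with near-identical copies elsewhere in the genome, had 508, 618 and 87.0. CYCB1;1, a mitotic cyclin gene, had 415, 521 and 96.3 over chromosome 4 from 17624114 to 17624991. AT2G48130 had 503, 385 and 96.2. In each of these 4 regions replicates 1 and 2 lay far above 100 while replicate 3 was below it. The regions on emb2171 and CYCB1;1 lay mostly beside the gene, with 17.5% and 8.0% of its span covered.

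The highest mean rank of any member was found among those weak in replicate 2 alone. AT5G62720 had 268, 95.5 and 1432, and AT2G41905 had 361, 92.5 and 1067. AT1G80180 had the highest replicate 3 score of any member, with 127, 95.3 and 2204. BMY2, a gene of the beta-amylase family, had 462, 69.2 and 986. Replicate 3 was the highest list at all 4, by score and by rank. Among the 16 members weak in replicate 1 alone, UCC3, which encodes a copper-binding uclacyanin, had 90.8, 186 and 481. AT5G67020 had 61.3, 183 and 593, and AT1G04660 had 91.8, 351 and 233.

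The 101 regions weak in all 3 lists had median scores of 39.6, 44.9 and 32.4, at percentiles 56.5, 51.1 and 25.4 of their lists. The highest mean rank among them was that of APT4, an adenine phosphoribosyltransferase gene of purine salvage, with 67.4, 59.5 and 92.4, in a region that covered 2.4% of the gene's span. PERK14, a receptor kinase gene with an extensin-like domain, had 54.4, 61.2 and 95, and TLP1, a thaumatin-like gene, had 34.6, 98.0 and 78.1. The first of 2 regions on AT3G59570 had 73.6, 78.4 and 38.8. At the low end, AT5G64430 had 22.6, 23.3 and 22.9, and no base there was shared by all 3 lists. AT1G03400 had 21.3, 23.97 and 26.0, AT5G14030 had 21.2, 26.0 and 25.8, and TINY (listed as tny), an AP2-domain regulator of growth, had 22.5, 23.2 and 32.6. These 4 lay close to the lowest score of the lists in every replicate.

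**Figure D2:**
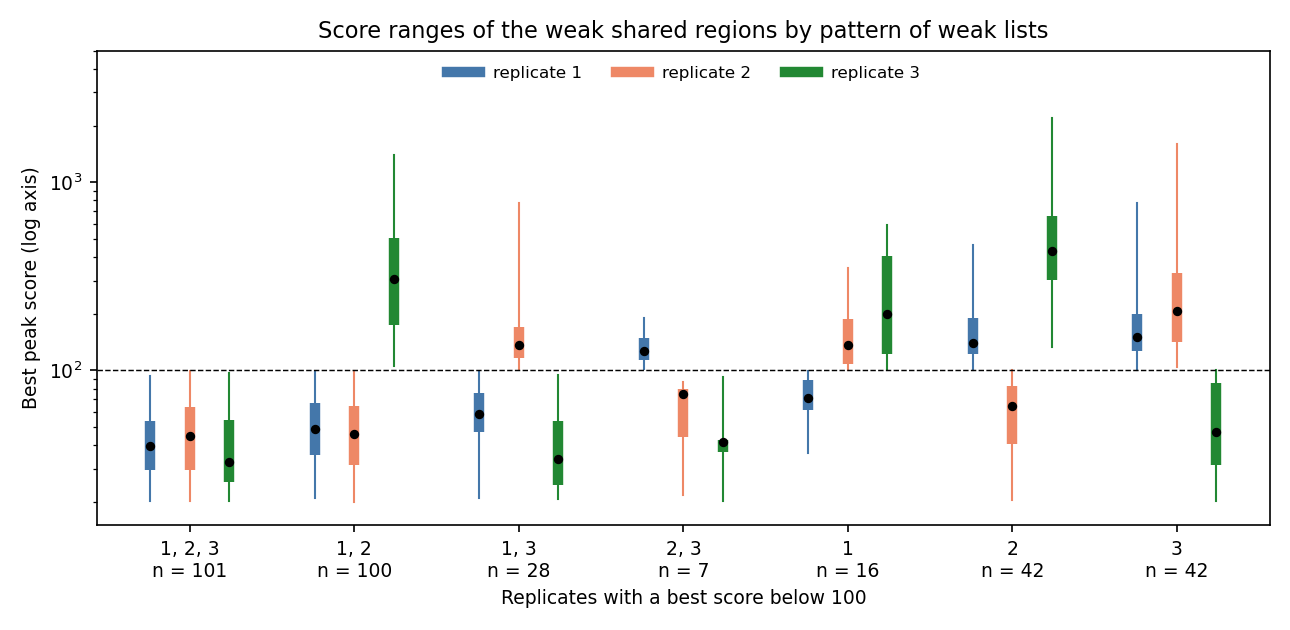
Best peak scores of the 336 members (log axis) in each replicate, grouped by the replicates in which the score was below 100; dots are medians, thick bars run between quartiles and thin lines between the lowest and highest score. Replicate 3 medians were 305 in regions weak in replicates 1 and 2 and 47.2 in regions weak in replicate 3 alone, and the 101 regions weak in all lists had medians of 39.6, 44.9 and 32.4.

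The threshold cut through a continuous range of scores. Just inside it, LBD37 had 150, 145 and 99.98, AT3G01085 had 108, 99.89 and 507, AT5G17165 had 99.57, 101 and 123.24, and AT5G60680 had 107, 351 and 99.09. Just outside it, among the strong shared regions, AT5G11090 had 124, 199 and 100.71, the hexose transporter gene STP1 had 193, 288 and 102.37, SIEL had 230, 102.78 and 556, and the protein kinase gene MPK16 had 113, 179 and 103.24. In 34 members the lowest score lay between 80 and 100.

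Within members, the best peaks of the 3 lists mostly overlapped. The best peaks of replicates 1 and 2 overlapped in 329 of 336 members (97.9%), those of replicates 1 and 3 in 325 (96.7%) and those of replicates 2 and 3 in 328 (97.6%). Midpoints of best peaks were a median of 180 bp apart between replicates 1 and 2, 165 bp between replicates 1 and 3, and 197 bp between replicates 2 and 3. In strong shared regions these gaps were 187, 144 and 191 bp (n = 405). All lists shared some bases in 321 members (95.5%) and in all 405 strong shared regions, with a median of 598 bp in members and 955 bp in strong shared regions. In the other 15 members a chain of peaks joined the lists without a common base. Exactly 1 peak of each list was found in 273 members (81.2%) and in 287 strong shared regions (70.9%).

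Members were shorter than strong shared regions, with a median length of 1532 bp (quartiles 1207 and 1979) against 2290 bp (1765 and 2778). The same order was seen in each list: the best peak was a median of 981, 1192 and 809 bp wide in members of replicates 1, 2 and 3, and 1499, 1990 and 1004 bp in strong shared regions. Width and score come from the same reads, so these widths are a description of what the score selected. Widths also differed between the patterns of weak lists. Replicate 3 peaks had a median width of 636 bp where all lists were weak and 917 bp where replicates 1 and 2 alone were weak. Replicate 1 peaks measured 1402 bp where replicate 3 alone was weak and 898 bp where replicates 1 and 2 were.

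Of the 4 longest members 3 lay on more than 1 gene. The longest, 5311 bp on chromosome 4 from 18214902 to 18220212, lay on SHL (listed as SHL1), on RD19, a drought-induced protease gene, and on VHA-A3, which encodes a subunit of the vacuolar proton pump. CAT3 and CAT1, which encode catalases, shared a region of 4487 bp. A region of 3930 bp on AT1G54217 also reached the autophagy gene ATG12A, and one of 3909 bp lay on the beta-galactosidase gene BGAL1 with scores of 158, 121 and 21.6. The most bases shared by all lists were found at EXGT-A3 (1777 bp), ASN1 (1748 bp), AT5G44260 (1528 bp) and AT4G35750 (1435 bp). AT5G44260, which encodes the tandem zinc finger protein TZF5, had 141, 205 and 98.99.

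Members sat over gene bodies more than beside them, which the rule favours because it asks for an overlap with a body. The midpoint was in a protein-coding body in 307 of 336 members (91.4%) and in 363 of 405 strong shared regions (89.6%). The region covered a median of 77.2% of its main gene, the one with the most overlap, and 80.7% of the region lay on that gene; in strong shared regions the medians were 83.6% and 69.0%. The whole main gene was covered in 73 members (21.7%) and 159 strong shared regions (39.3%), while 62 members (18.5%) and 29 strong shared regions (7.2%) lay wholly inside it. A peak of every list reached the main gene in 316 members (94.0%) and 386 strong shared regions (95.3%). Members weak in replicate 3 had the midpoint in a body in 156 of 178 cases (87.6%), and members not weak there in 151 of 158 (95.6%); these shares were not tested.

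**Figure D3:**
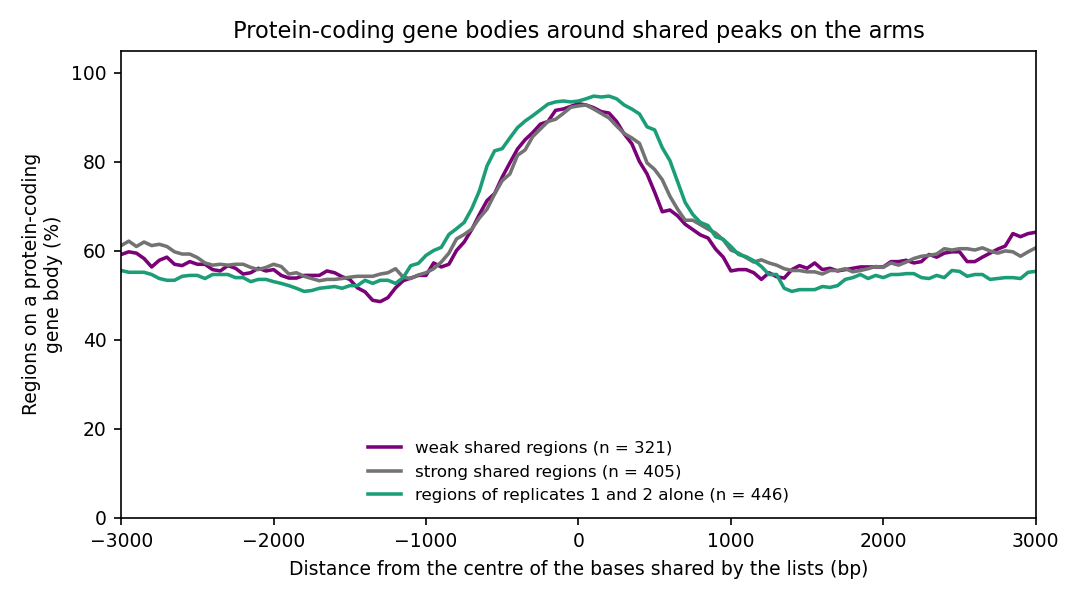
Share of regions that lie on a protein-coding gene body (vertical, %) at each distance from the centre of the bases shared by their lists (horizontal, bp, in steps of 50), for 321 members with such bases, 405 strong shared regions and 446 arm regions of replicates 1 and 2 alone. At the centre the shares were 93.1%, 92.6% and 93.7%. At 500 bp they were 73.2%, 78.3% and 87.2% on the right and 76.6%, 75.8% and 83.0% on the left. At 3000 bp they were 64.2%, 60.7% and 55.4% on the right and 59.2%, 61.2% and 55.6% on the left. Left and right follow chromosome coordinates, since strand was not known, and the regions were chosen to overlap a gene body.

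Arm regions with peaks of replicates 1 and 2 and none of replicate 3, chosen by the same gene and arm criteria, numbered 446. The median length was 1532 bp in members and 1300 bp in these regions. Wholly inside the main gene lay 62 members (18.5%) and 146 of these regions (32.7%). Members join peaks of 3 lists and these regions peaks of 2, so merging alone can make members longer. Best peaks had median widths of 981 and 1192 bp in replicates 1 and 2 in members and of 885 and 1074 bp in these regions. Median scores in replicates 1 and 2 were 60.6 and 63.0 in members and 32.5 and 37.1 in these regions.

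Members overlapped 446 protein-coding genes, or 1.63% of the 27444 in the RefSeq table. Strong shared regions overlapped 614 (2.24%), and 4 genes were touched by both. By the rule no region is both weak and strong, so a gene counted in both carries separate regions. The small overlap is therefore not a result about the genes. A single gene was overlapped by 232 members (69.0%), 2 genes by 92 (27.4%) and 3 or more by the other 12. The 336 members had 333 different main genes. PYK10, which encodes a beta-glucosidase of endoplasmic reticulum bodies, carried 2 members 101 bp apart with scores of 79.1, 48.6 and 25.8 and of 50.8, 85.5 and 36.5. AT3G59570 and M17 also carried 2 each. Main genes spanned a median of 1892 bp, against 2142 bp for strong shared regions and 2078 bp for all protein-coding genes. A gene symbol was listed for 174 of the 336 main genes (51.8%), 204 of 405 in strong shared regions (50.4%) and 37.8% of all protein-coding genes. A non-coding RNA gene was also overlapped by 40 members (11.9%) and by 44 strong shared regions (10.9%).

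All 5 chromosomes held members, 84, 57, 61, 62 and 72 on chromosomes 1 to 5. Relative to 1000 protein-coding genes on the arms this was 13, 15.7, 13, 16.6 and 13.1. Strong shared regions numbered 16.7, 16.5, 16.8, 17.9 and 16.6 per 1000 arm genes. Within 10000 bp of each other lay 21 pairs of neighbouring members, 12 of them at most 2000 bp apart. Among the closest were SKL2 and SRO1 (44 bp) and TRX-M4 and EXPA12 (68 bp).

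Which kinds of gene carried members was read from 28 gene lists, matched by symbol or synonym, so genes without a matching name are missing from them. Of 1998 listed genes, 71 (3.55%) were overlapped by a member, and 59 of the 71 had peaks of every list on the gene itself. Listed genes are named genes, and named genes were more frequent among the main genes of members and strong shared regions alike, so 3.55% is not to be read against the 1.63% of all genes alone. No enrichment test was run; each list is given as its count beside those 2 shares.

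Photosynthesis genes held members in 7 of 55 cases (12.7%, exact 95% interval 5.27% to 24.5%), strong shared regions in 5 (9.09%) and regions of replicates 1 and 2 alone in 20 (36.4%, against 2.01% of all genes). LHCB4.1, an antenna protein gene of photosystem II, had scores of 80.03, 145 and 584 over chromosome 5 from 208648 to 211194. PSAL, which encodes a photosystem I subunit, had 67.4, 273 and 119. LHCA4 and LHCA2 encode antenna proteins of photosystem I. LHCA4 had 347, 328 and 36.2, whereas LHCA2 had 65.2, 64.4 and 145. By rank within the list replicate 1 stood highest at both, at percentile 84.5 for LHCA4 and 67.2 for LHCA2. DRT112, the plastocyanin gene PETE2, had 92.4, 172 and 33.2. PSAE-1 had 54.3, 24.6 and 496, and CAB1 (LHCB1.3) was touched by a region that lay mainly on NRPA2 with 51.9, 139 and 21.3. None of the 7 lay in a region weak in all 3 lists, and without replicate 3 the rule gave 24 listed photosynthesis genes in place of 7. The ferredoxin gene FED A, whose name the list did not match, lay in a member weak in all 3 lists (39.8, 88.6 and 25.1).

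Genes of the carbon metabolism list, which also holds catalase genes and ASN1, held members in 5 of 77 cases (6.49%) and strong shared regions in 1 (1.3%). CAT3, with 16.2% of CAT1 in the same region, had 445, 620 and 31.5. ASN1, the asparagine synthetase gene induced in darkness, had 59.4, 152 and 44.6. CA2, a carbonic anhydrase gene, had 100.2, 150 and 20.1. Replicate 3 was the lowest list at all of these. The sucrose synthase gene SUS3 had 64.3, 67.7 and 36.8, with a replicate 2 peak alone on its body.

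Water channel genes held members in 3 of 35 cases and strong shared regions in 3 (8.57% each). All 3 encode aquaporins of the plasma membrane and were weak in every list. PIP1C had 84.1, 39.0 and 55.6, PIP2A had 35.5, 63.9 and 21.5, and PIP3 had 38.4, 29.98 and 48.6.

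**Figure D4:**
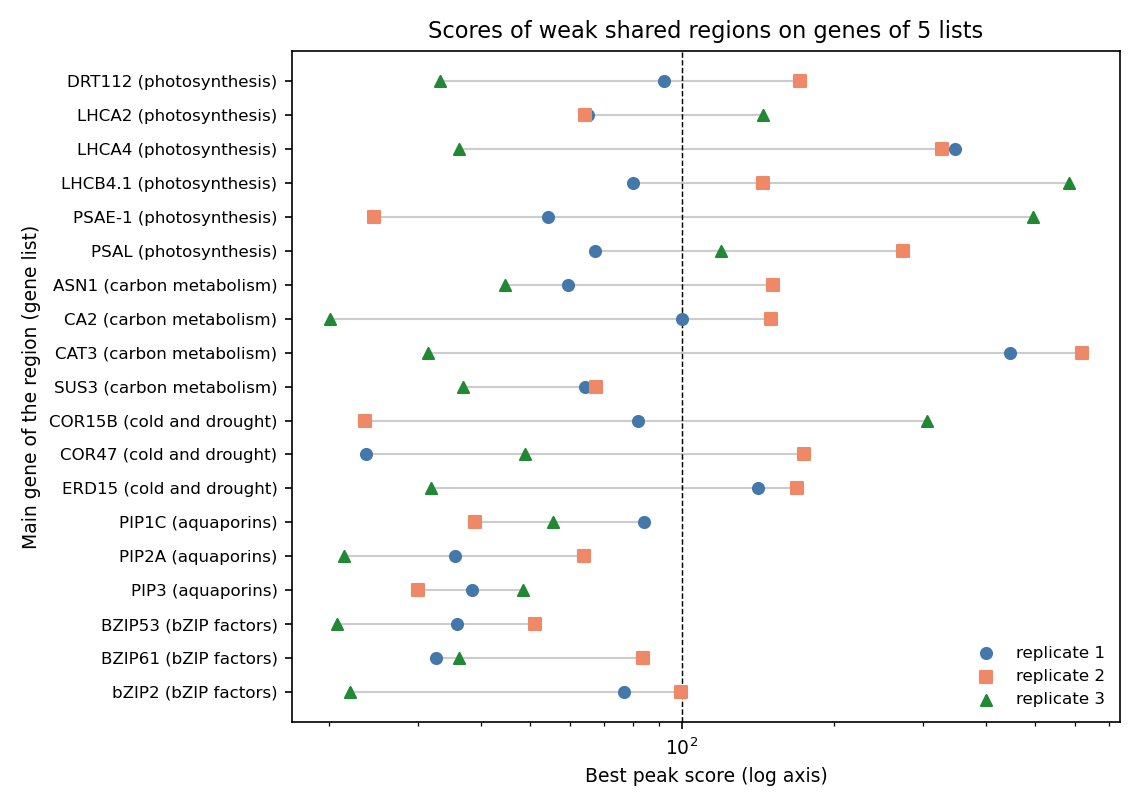
Best peak scores (log axis) in the 3 replicates at members whose main gene belongs to 5 of the gene lists; each row is a gene and the grey line joins its lowest and highest score. The aquaporin and bZIP genes lie below the dashed line at 100 in every replicate, while the photosynthesis genes span it, as LHCA4 with 347, 328 and 36.2 and PSAE-1 with 54.3, 24.6 and 496.

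Cell wall genes held members in 11 of 154 cases (7.14%, exact 95% interval 3.62% to 12.4%) and strong shared regions in 12 (7.79%). The expansin gene EXPA12 had 97.5, 52.9 and 525. GAE6, which encodes an epimerase that makes the sugar nucleotide of pectin, had 122, 85.9 and 168. XTH26 and EXGT-A3 encode enzymes that cut and rejoin xyloglucan. XTH26 had 199, 212 and 60.1, and EXGT-A3 had 72.4, 57.9 and 251. AGP15, an arabinogalactan protein gene, had 145, 114 and 48.7. The weak list differed from gene to gene in this group.

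Transcription factor genes held members in small numbers. Of 46 bZIP genes 4 were overlapped by a member (8.70%) and none by a strong shared region or a region of replicates 1 and 2 alone. bZIP2 had 76.8, 99.7 and 22.1, BZIP61 had 32.6, 83.7 and 36.1, and BZIP53, which acts in the response to starvation and in seed maturation, had 35.9, 51.1 and 20.7. TGA9 was touched at 2.9% of its span by a region mainly on AT1G08315. Among homeodomain genes 4 of 83 held members (4.82%) and 3 held strong shared regions. HB6, which acts in abscisic acid signalling, had 189, 74.9 and 41.8, and HB26 had 51.1, 84.3 and 140. HB17 had 141, 22.2 and 655, and KNAT3, a KNOX gene, had 50, 65.3 and 38.3.

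Members on the listed genes of other transcription factor families were fewer. AP2/ERF genes held 3 of 54 (5.56%), with 6 in strong shared regions. ERF7 had 44.1, 62.5 and 31.2, TINY is given above, and ERF10 was reached by a replicate 1 peak alone. The list missed other genes of the family by name: DDF1 (68.7, 36.5 and 222) and DRNL (53.95, 93.05 and 272) were also members. TCP genes, which control cell growth and division, held 2 of 22: TCP8 with 53.8, 44.3 and 183, and TCP14 with 195, 122.8 and 45.8. NAC genes held 2 of 100. ATAF1, a stress-response NAC gene, had 170, 83.2 and 330, and NAC083 had 54.7, 82.0 and 20.2. MYB genes held 2 of 132, MYB59 with 43.4, 23.1 and 25.4 and MYBR1 with 31.6, 29.6 and 51.4. The MYB share was 1.52%, the NAC share 2.00% and the WRKY share 1.39% (1 of 72, WRKY58, reached by a replicate 2 peak alone). These shares were near the 1.63% of all genes and below the 3.55% of listed genes.

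Signalling genes were represented by calcium and auxin lists. Calcium signalling genes held 6 of 124 (4.84%), and 5 of these encode CIPK kinases, which act with calcineurin B-like calcium sensors. SR1 (CIPK14) had 214, 43.3 and 431, CIPK4 had 39.6, 80.4 and 155, and CIPK20 had 98.0, 118 and 39.3, with its neighbour CIPK19 touched by 7 bp of the same region. SIP3 (CIPK6) had 108, 81.3 and 20.2. The calmodulin-binding scaffold gene IQD23 had 181, 44.6 and 816. Auxin genes held 5 of 173 (2.89%). IAA16 had 156, 243 and 32.2, AT1G72430 (a SAUR gene) had 59.7, 131 and 28.3, and the transporter gene PIN4 had 87.9, 29.7 and 47.2, with no replicate 3 peak on its body.

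Cold and drought genes held members in 4 of 54 cases (7.41%) and strong shared regions in 2. COR47, a dehydrin gene, had 23.7, 174 and 48.9. ERD15 had 142, 169 and 31.9, and COR15B, which encodes a chloroplast protein that protects against freezing, had 82.1, 23.6 and 306. COR47 was highest in replicate 2 by score and by rank, while COR15B was highest in replicate 3 by score and at percentiles 70.5 and 70.1 in replicates 1 and 3. RD19 shared the region on SHL and was reached by peaks of replicates 1 and 2 alone. Cytochrome P450 genes held 4 of 234 (1.71%), near the 1.63% of all genes and below the 3.55% of listed genes. CYP89A2 had 118, 73.3 and 541, and CYP78A7 had 38.4, 97.1 and 366. CYP81F4, in a region mainly on AT4G37409, had 71.4, 72.4 and 23.2, and CYP81G1 shared the region on MYBR1.

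Flowering and chromatin genes, to which EBS itself belongs, were read from lists matched by name. Among 26 listed floral repressors TEM1, which represses the florigen gene, was the only one (3.85%). It had 67.8, 111 and 23.3 over chromosome 1 from 8981887 to 8983377. RAV1, a relative of TEM1 outside that list, was a member with 126, 299 and 29.5. None of 37 floral activators held a member (interval 0% to 9.49%). Among 98 chromatin regulators SHL was the only one (1.02%, interval 0.0258% to 5.55%), with 85.8, 780 and 34.5. Each of these intervals includes the 1.63% of all genes and the 3.55% of listed genes. The plants carried a mutation in SHL, whose nature is not analysed here. PIL6 (PIF5), a light-signalling factor, was the only one of 65 light and clock genes, with 127, 130 and 38.6, and LEC1, a regulator of embryo development, the only one of 23 embryo and seed genes, with 149, 38.2 and 40.5.

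Of the remaining lists 5 held no member and 3 held 1 or 2. No member lay on the 38 ribosomal protein genes matched by symbol, although emb2171 above encodes such a protein under another name. None lay on 38 translation factor genes, of which 5 held a strong shared region, nor on the matched 41 cytoskeleton, 24 histone or 22 bHLH genes. The bHLH list is not the whole family, since PIL6 above encodes a bHLH factor under a name it did not match. Chaperone genes held 2 of 53 (3.77%), BIP3 and SHD, both touched by regions mainly on the neighbours SRC2 and TLP1. UBQ13 was the only one of 56 ubiquitin genes (1.79%), with 67.5, 38.9 and 147. Among 80 genes of the RNA-binding list 2 held members (2.5%). These were SCL13 and SR1, matched by symbol, but SCL13 encodes a GRAS regulator and SR1 the kinase named above, so neither is an RNA-binding protein; strong shared regions were found on 12 genes of that list.

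**Figure D5:**
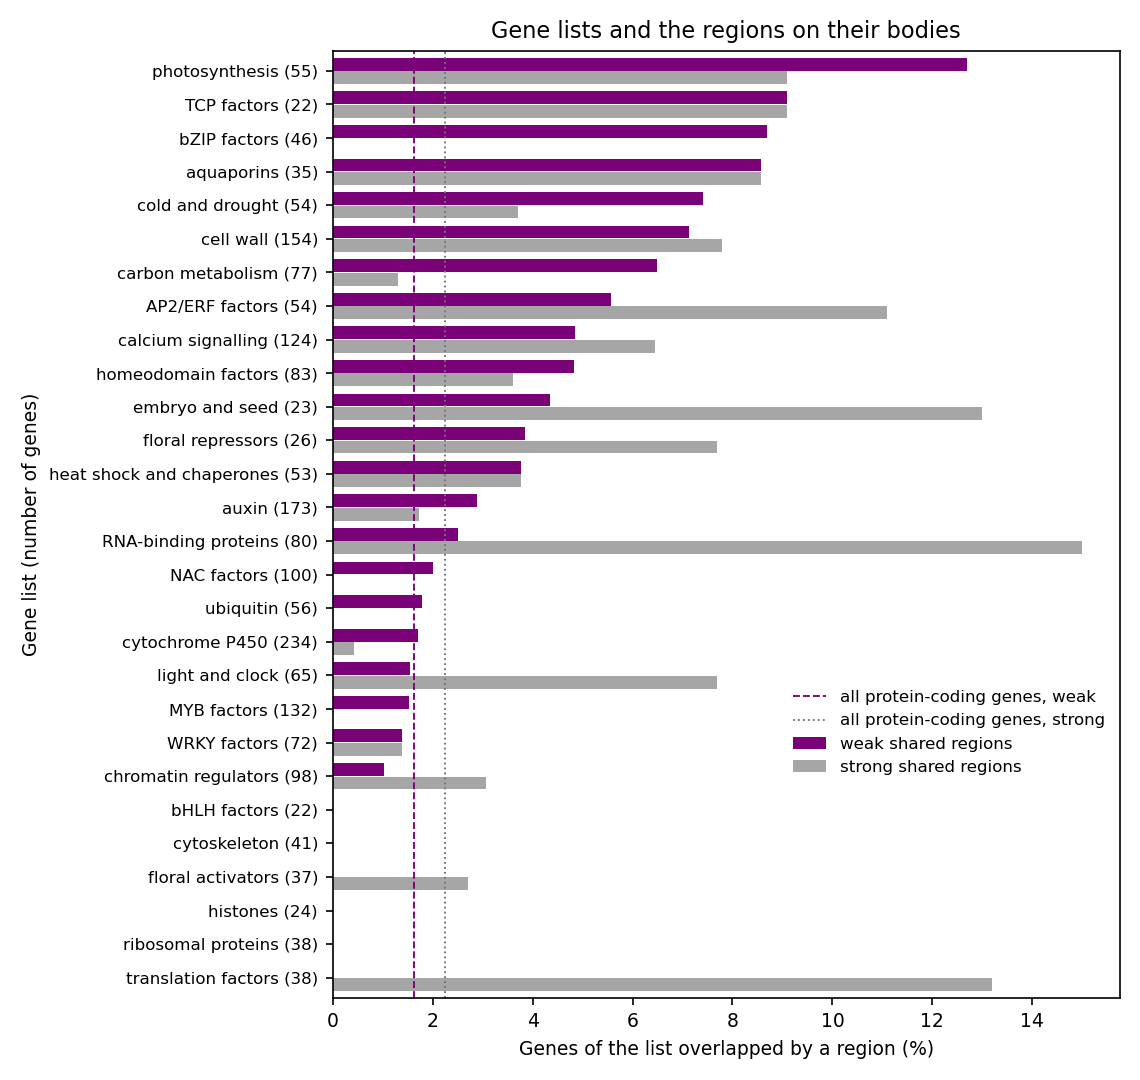
Share of the genes of each list (number of genes in brackets) whose body was overlapped by a member (purple) or by a strong shared region (grey), with the shares of all protein-coding genes, 1.63% and 2.24%, as dashed and dotted lines. Photosynthesis genes have the longest purple bar (12.7%), bZIP genes have a purple bar of 8.70% and no grey one, and translation factor genes have a grey bar of 13.2% and no purple one.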

How the data were processed

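The submitters' processing notes name MACS 1.4, SAMtools 1.3, Bowtie2 2.2.8 and the build TAIR10. Parameters and the use of the input: not given in the sources used here. Each ChIP sample has its own list deposited by the authors, with a score for each peak; peaks were not called on pooled reads, and no scaling between lists was applied to the scores, so ratios and orders of scores between lists describe the deposited values and can differ from those of ranks. Starts were converted to count from 1. Chloroplast and mitochondrial peaks were left out.

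Genes came from a RefSeq table of assembly TAIR10.1 (27444 protein-coding genes, 4843 pseudogenes, transcribed ones included), whose nuclear frame was taken to be that of TAIR10; none of its coordinates is printed, and it has no strand or exons. Pericentromeric windows were 11.5 to 17.7, 1.1 to 7.2, 10.3 to 17.3, 1.5 to 6.3 and 9.0 to 16.0 Mb on chromosomes 1 to 5. The main gene of a region is the one it overlaps most. Percentiles are ranks among the nuclear peaks of a list. Intervals on list shares are exact Clopper-Pearson (95%) and cover only the number of genes. No test was run: scores chose the members, regions are not replicates, and an exact sign-flip permutation test over 3 lists cannot go below p = 0.25.

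The members and the gene lists were chosen with earlier results of these data known. Named members were the 4 of highest mean percentile within each pattern of weak lists, the 4 nearest the threshold on either side, the 4 of lowest percentile, the 4 longest, the 4 with most shared bases, the 4 with the widest score ratio, and up to 5 per gene list (2 where a list had under 3). PSAE-1, CAB1, SIP3, FED A, DDF1, DRNL, RAV1, PYK10 and M17 were named after their values were seen. So were the close neighbours and the genes of the closing observations. Alternatives were other score limits, a 50% overlap, weakness in all lists, pseudogenes allowed, wider windows, peaks scoring 30 or more only, leaving out each replicate, and, added after seeing the data, weakness by rank and transcribed pseudogenes allowed. Code was tested on simulated lists, in which all 500 placed regions were recovered. These regions stood apart, with 1 peak of each list and bases common to all 3. Chains of peaks and regions with several peaks of a list were not simulated. Python 3.11.15, pandas 2.3.3, NumPy 2.4.6 and SciPy 1.17.1 were used.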

Additional observations from a re-analysis of the deposited data

Results flagged for a closer look

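Outside the nuclear regions, replicate 3 held 6 chloroplast or mitochondrial peaks and replicates 1 and 2 held 3 each. They are given because they lie outside the regions compared; whether 6 differs from 3 was not tested.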

How the results depend on the processing

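Of 73 recomputed values, 53 stayed within 1.5 times a count or within the exact 95% interval of a share, and 20 moved. Leaving out replicates in turn gave 426 to 724 members, 520 to 899 genes, 5 to 24 photosynthesis genes, 93.0% to 93.6% of midpoints in a gene body, 59.2% to 59.6% of members weak in replicate 3, and shared bases on a body in 96.7% to 97.8%. The highest 3 counts came without replicate 3. In each of these settings 2 lists sufficed, and there were 429 members without replicate 1 and 426 without replicate 2. Requiring weakness in all 3 lists left 101 members, 127 genes and 0 listed photosynthesis genes. Shared bases lay on a body in 86.1% of them, and by construction 100% were weak in replicate 3. Keeping peaks that score 30 or more left 208 members on 283 genes, 41.3% of them weak in replicate 3. A limit of 50 left 4 photosynthesis genes, and a limit of 200 made 60.6% of members weak in replicate 3. Overlap of 50% of the shorter peak put shared bases on a body in 95%. With weakness set below the 70th percentile of each list, chosen after seeing the data, 385 regions qualified, 334 of the 336 members among them, and 76.9% were weak in replicate 3. No paired analysis was possible because no values of the input samples, which share the numbers 1 to 3 with the ChIP samples, were used here. Peak lists give no depth, so whether a weak peak reflects few reads was not tested.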

Other observations

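Several families with more than 1 member were noticed after the values were seen, so their counts are descriptions with no test. They were picked because they held members, which by itself makes their shares high. An absence of strong shared regions from families this small is not read as a result. Of all protein-coding genes 1.63% held a member and 2.24% a strong shared region, and of the genes in the 28 lists 3.55% held a member. LBD genes held members in 5 of 40 cases (12.5%) and a strong shared region in 1. The 3 closely related genes LBD37, LBD38 and LBD39, which encode repressors of anthocyanin synthesis and of nitrogen-response genes, were all members. LBD37 had scores of 150, 145 and 99.98, LBD38 had 23.8, 89.3 and 61.6, and LBD39 had 24.4, 42.6 and 26.9 in replicates 1, 2 and 3. All 3 lists were weak at LBD38 and LBD39. JLO, another LBD gene, had 76.5, 45.9 and 606, with replicate 3 on top as at LBD11.

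Of 8 genes named as dark-inducible, 3 were members (37.5%) and none held a strong shared region. Of all genes 1.63% and of listed genes 3.55% held a member. The 3 were ASN1, SEN1 with 47.8, 84.0 and 111, and DIN10 with 52.1, 142 and 80.7. The dormancy-associated genes DYL1 (111, 120 and 67.6) and AT2G33830 (261, 221 and 20.2) were members weak in replicate 3 alone. The nitrate transporter genes NRT1.1 (93.0, 69.0 and 25.8) and NRT2.7 (48.5, 113 and 494) were members, 2 of 16 in that family, with none in strong shared regions. Genes of the SHI-related family, which regulate auxin synthesis in developing organs, held members in 3 of 12 cases and strong shared regions in 2. SHI had 29.3, 24.9 and 253, STY2 had 51.6, 21.5 and 233, and SRS4 had 207, 65.9 and 544, with the highest score in replicate 3 at each. By rank within the list SRS4 stood at percentile 80.3 in both replicates 1 and 3.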
